A study of Mus musculus with 15 samples.

Results

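The transcripts of whole kidneys from 4-month-old mice were compared between 4 mice in which a PRCC-TFE3 knock-in could be switched on in tubule cells and 4 controls of that age in which it could not. The 8 arrays were chosen by genotype and age, as the titles of the samples give them, and are 8 of the 15 arrays of the series, whose other 7 arrays are from kidneys at 7 months. All 8 mice carried Rosa26-LSL-PRCC-TFE3, in which the fusion sits at the Rosa26 locus behind a stop that Cre recombinase can remove. The PRCC-TFE3;KSP-Cre+ mice (Cre+ below) also carried KSP-Cre, and the PRCC-TFE3;KSP-Cre- mice (Cre- below) did not. KSP-Cre is driven by the promoter of Cdh16 (Ksp-cadherin), a cadherin of tubule epithelium, so the vessels, the glomerular tuft and the immune cells of the sample lie outside the tissue in which the promoter is known to work. KSP-Cre alone, with no knock-in, was in neither group, and what the fusion does and what the Cre transgene does cannot be told apart. In bulk kidney, fewer cells of a type and less RNA per cell cannot be told apart either.

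TFE3 belongs to the MiT family of helix-loop-helix transcription factors, with MITF, TFEB and TFEC. These factors bind E-box sequences and switch on genes of lysosomes and autophagy, and MITF does the same for pigment genes of melanocytes. In fed cells TFE3 is held in the cytosol through the Rag GTPases and folliculin at the lysosome, and its fusion with PRCC, known from translocation renal cell carcinoma, keeps the DNA-binding part of TFE3.

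The values are log2 intensities summarised by robust multi-array average (RMA), and a difference of 1 is a 2-fold change. Across genes, pairs of 4-month arrays from one group correlated at 0.985 to 0.994 and pairs from different groups at 0.978 to 0.987. Defining kidney transcripts were high in all 8 arrays, with Umod of the thick ascending limb at 11.69 to 12.25, Lrp2 of the proximal tubule at 11.60 to 12.06 and the podocyte gene Nphs1 at 5.74 to 6.51. The labels do not give sex. Each 4-month group held 2 arrays with high and 2 with low values of Y-linked genes (Cre- replicates 1 and 3 and Cre+ replicates 1 and 2 were high), so this difference was balanced between the groups. The deposited table has no detection calls. Xist stood at 3.35 to 3.93 in the arrays of high Y-linked values, and for the 75 higher genes whose Cre- mean was no more than 3.93 the fold may be a lower bound, a rough guide since levels of different probes are not strictly comparable. Among the genes described here these were Moxd1, Tyrp1, Snap91, Gpr143, Cdkn3, Mmp7, Nrcam, Nuf2, Eda2r, Ppef2, Gm15498 and Gm6929.

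Transcripts of the fusion's partner genes did not pass the test. Tfe3 was at 6.51, 6.48, 6.61 and 6.41 in Cre- and at 6.55, 6.31, 6.68 and 6.57 in Cre+ kidneys, and the values of the groups overlapped (log2 difference 0.03, SE 0.09, adjusted p = 0.92). Prcc differed by 0.09 (SE 0.12) and Cdh16, whose promoter drives Cre, by -0.17 (SE 0.12), both with overlapping values. The sources used here do not give where the array's probes lie relative to the junction of the fusion, and these values do not check its presence. Of the 9 measured genes of the MiT family and its co-factors, 0 rose and 0 fell by limma and by the plain linear model, with a median of 0.05 and 1 at an unadjusted p under 0.05, and 1 fell with each array centred on its median. Tfec was at -0.39 (SE 0.12, adjusted p = 0.094), Usf2 at 0.25 and Max at 0.22.

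At 4 months the response was mostly one of rises. Of 22180 genes, 606 were higher (2.73% of those tested) and 178 were lower (0.803%) in Cre+ kidneys at an adjusted p under 0.05, and these shares are the background for every count of rising or falling genes in what follows. The median change of all genes was 0.05 and the 5th and 95th percentiles were -0.31 and 0.42. Of the higher genes 84 changed by less than 0.5, 373 by 0.5 to 1, 115 by 1 to 2 and 34 by 2 or more. Of the lower genes 61 fell by less than 0.5, 106 by 0.5 to 1 and 11 by 1 to 2, and 0 fell by 2 or more. Values of the 2 groups were fully apart for 729 of these 784 genes, against 2099 of all genes (9.46%). With each array centred on its own median, the split was 497 higher and 511 lower, 49.3% higher against 77.3%, so the excess of rises in number depended on scaling. In the scaling as deposited 149 genes rose and 11 fell by at least 2-fold.

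Single arrays moved these counts. The higher genes numbered 384 without Cre- replicate 1, 385 without Cre- replicate 3, 373 without Cre+ replicate 3 and 370 without Cre+ replicate 4. The lower genes numbered 86 without Cre- replicate 1, 84 without Cre- replicate 3, 72 without Cre+ replicate 2 and 96 without Cre+ replicate 3. Of the 784 genes, 383 (325 higher and 58 lower) kept their call and direction with each of the 8 arrays left out in turn.

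**Figure D1:**
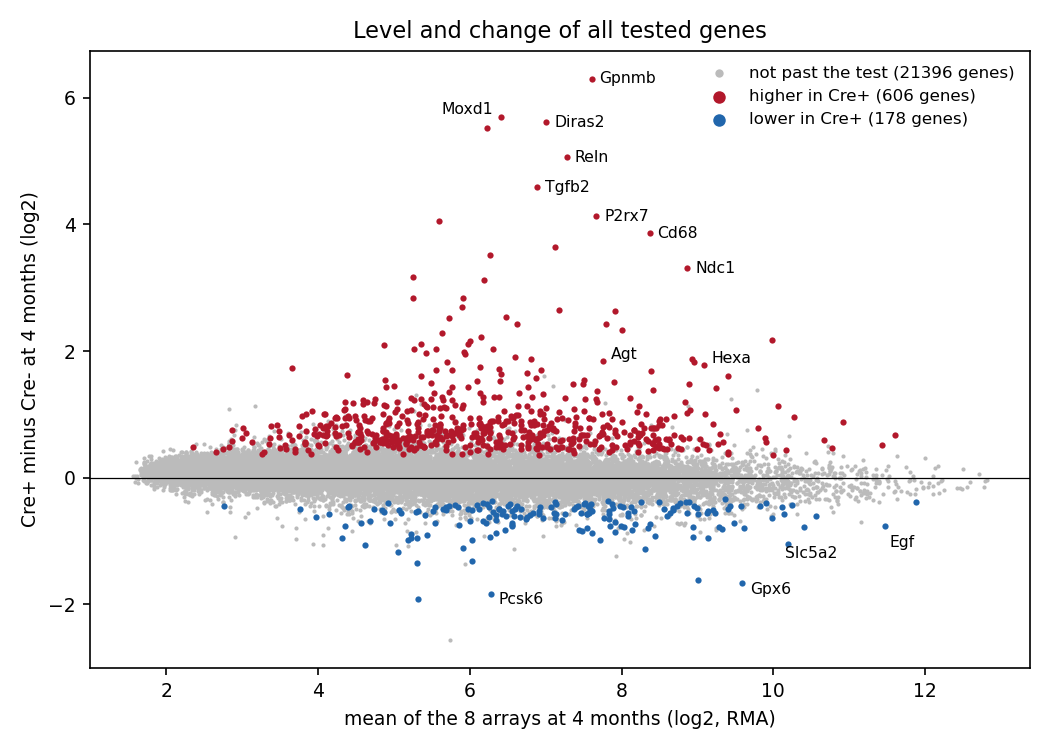
Mean log2 value of the 8 arrays at 4 months (x axis) against the log2 difference between Cre+ and Cre- kidneys (y axis) for all 22180 tested genes. The 606 higher genes are red and reach 6.30 (Gpnmb), and the 178 lower genes are blue and reach -1.92.

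The largest rise was that of Gpnmb, and other lysosomal and pigment genes were among the large ones. Gpnmb, a glycoprotein of lysosomes and melanosomes, was at 4.63, 4.48, 4.34 and 4.41 in Cre- and at 10.21, 11.07, 10.94 and 10.82 in Cre+ kidneys. Every Cre+ value was thus more than 5 units above every Cre- value, and the fold was 78.7 (log2 change 6.30, SE 0.17, adjusted p = 1.5e-13). Cd68, a lysosomal membrane protein that is abundant in macrophages, was at 6.31, 6.96, 6.14 and 6.34 in Cre- and at 9.64, 10.60, 10.56 and 10.38 in Cre+ kidneys (3.86, SE 0.21). Mcoln3, a lysosomal cation channel, was at 6.95, 6.88, 6.39 and 7.13 against 8.69, 9.53, 9.16 and 9.30 (2.34, SE 0.18, adjusted p = 2.9e-07). Cre+ replicate 1 was the lowest of the 4 Cre+ arrays for all 3 of these genes, and the groups did not overlap for any of them. Hexa, the alpha chain of a lysosomal hexosaminidase, was at 8.01, 8.36, 8.04 and 8.39 in Cre- and at 9.76, 10.12, 10.04 and 10.01 in Cre+ kidneys (1.78, SE 0.13, adjusted p = 1.1e-07). Hgsnat, which acetylates heparan sulfate at the lysosomal membrane, rose by 2.17 (SE 0.13).

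Genes known from pigment cells rose, though not all of them are confined to those cells. Tyrp1, an enzyme of melanin synthesis, was at 3.35, 3.71, 3.36 and 3.85 in Cre- and at 7.12, 8.29, 7.52 and 7.54 in Cre+ kidneys, a rise of at least the 16.6-fold measured if the Cre- values were at background (4.05, SE 0.26, adjusted p = 2.4e-08). Gpr143, a receptor of melanosomes, rose by 2.84 (SE 0.17) and Mreg, a protein of melanosome transport, by 2.70 (SE 0.23). Rab27a, a small GTPase that tethers melanosomes and secretory vesicles, rose by 1.51 (SE 0.15), Trpm1, a cation channel first found in melanocytes, by 1.45 (SE 0.19), and Kit, the receptor of stem cell factor, by 0.91 (SE 0.14). The pigment list did not hold all of the genes just named. In the list as a whole 5 of 17 measured members rose and 1 fell, with a median of 0.23, and the other members did not pass the test. The member that fell was Rab38, at -0.49 (SE 0.13, adjusted p = 0.040), and it lost its call without Cre- replicate 1 or 3 or Cre+ replicate 2, 3 or 4 at 4 months, or without Cre- replicate 2 or Cre+ replicate 3 or 4 at 7 months.

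Several of the largest rises were in secreted proteins. Reln, a secreted glycoprotein known for guiding migrating neurons, was at 4.78, 4.56, 4.60 and 5.04 in Cre- and at 9.82, 9.73, 9.74 and 9.92 in Cre+ kidneys. Its 4 Cre+ values were close together, and the fold was 33.3 (5.06, SE 0.12, adjusted p = 3.1e-14). Tgfb2, a ligand of the TGF-beta receptors, was at 4.49, 4.97, 4.02 and 4.90 in Cre- and at 9.04, 9.14, 9.26 and 9.32 in Cre+ kidneys (4.59, SE 0.22, adjusted p = 3.4e-10). In a list of 31 measured ligands, receptors and inhibitors of the TGF-beta and BMP pathways 2 rose and 0 fell, with a median of 0.07. The other riser of the list was Gdf11, a related ligand (0.79, SE 0.15). Outside the list the related ligands Inhbe (1.55), Bmp3 (1.36) and Bmp15 (1.12) rose, as did Twsg1 (0.85) and Nbl1 (0.56), which regulate BMP signalling. These were picked because they were called, and the genes of these pathways outside the list were not counted. Cck, a peptide hormone of gut and brain, was at 6.40, 5.23, 5.32 and 6.48 in Cre- and at 8.34, 8.27, 8.75 and 8.67 in Cre+ kidneys (2.65, SE 0.31, adjusted p = 5.8e-05). Its Cre- values were spread over more than 1 unit, yet all lay below the Cre+ values. Agt, angiotensinogen, was at 6.58, 7.28, 6.48 and 7.00 in Cre- and at 8.47, 8.90, 8.88 and 8.47 in Cre+ kidneys (1.85, SE 0.18, adjusted p = 5e-06).

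Promoter sequences are shown for 4 of the genes with large rises, Tgfb2, Reln, Tyrp1 and Cck, because each holds an E-box that MiT factors can bind. Each line runs 5′ to 3′ in the direction of the gene from 120 bases before its start site, 150 bases in all, from the RefSeq promoter table of GRCm38.p6. Capitals mark CACGTG, which reads the same on both strands, or TCATGTG.
Tgfb2 promoter (chr1:186705960-186706109, minus strand): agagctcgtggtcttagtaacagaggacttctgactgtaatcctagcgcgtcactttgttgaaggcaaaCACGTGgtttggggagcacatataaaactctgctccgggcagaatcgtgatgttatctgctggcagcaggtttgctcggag
Reln promoter (chr5:22344676-22344825, minus strand): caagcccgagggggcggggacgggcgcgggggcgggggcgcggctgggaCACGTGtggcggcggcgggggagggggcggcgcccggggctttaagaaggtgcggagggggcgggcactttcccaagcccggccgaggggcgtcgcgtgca
Cck promoter (chr9:121495665-121495814, minus strand): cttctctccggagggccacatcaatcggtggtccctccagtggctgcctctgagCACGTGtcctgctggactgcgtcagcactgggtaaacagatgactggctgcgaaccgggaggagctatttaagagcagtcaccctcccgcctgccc
Tyrp1 promoter (chr4:80834093-80834242, plus strand): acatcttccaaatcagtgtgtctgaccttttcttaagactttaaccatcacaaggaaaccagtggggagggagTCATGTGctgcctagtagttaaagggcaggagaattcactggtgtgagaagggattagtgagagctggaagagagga
The motif began 51 bases before the start site in Tgfb2, 71 in Reln, 66 in Cck and 47 in Tyrp1. CACGTG was in 8.07% of the 20611 promoter windows of tested genes (250 bases before to 50 after a start site), in 10.3% of the 582 windows of higher genes and in 11.8% of the 178 windows of lower genes. TCATGTG, searched on both strands, was in 2.99% of all windows, 4.12% of those of higher genes and 2.25% of those of lower genes. In the 28 windows of the 30 largest rises, CACGTG was in 4 and TCATGTG in 1. TGANTCA, another motif searched and no E-box, was in 4.78% of all windows, 5.67% of those of higher and 6.18% of those of lower genes. It was also in 4 of the 28 windows of the largest rises. The difference between these shares was not tested, and a match of letters describes the sequence and no binding.

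Receptors of several classes rose. P2rx7, a channel opened by extracellular ATP, was at 5.20, 5.64, 5.69 and 5.87 in Cre- and at 9.61, 9.99, 9.80 and 9.54 in Cre+ kidneys (4.13, SE 0.14, adjusted p = 2.4e-12). Ngfr, a receptor of neurotrophins, was at 4.41, 4.59, 4.62 and 4.46 against 7.95, 8.10, 8.18 and 7.89 (3.51, SE 0.12, adjusted p = 2.4e-12). Both had tight groups with no overlap. Ret, a receptor tyrosine kinase that GDNF activates in the growing ureteric bud, was at 4.25, 4.94, 4.13 and 4.54 in Cre- and at 7.05, 7.12, 6.80 and 6.99 in Cre+ kidneys (2.53, SE 0.17, adjusted p = 5.1e-08). It was the only one of 10 measured genes of the RET pathway, with its ligands and co-receptors, that passed the test, and the median of the list was 0.05. Of 14 output genes of ERK signalling 0 rose and 0 fell by limma and by the plain linear model, with a median of -0.02 and 3 at an unadjusted p under 0.05, and 1 fell after quantile normalization or with each array centred on its median. Among them Dusp5 was at 0.37 (adjusted p = 0.13), Dusp6 at -0.35 (adjusted p = 0.35) with 0.14 in its other entry on the array and Etv1 at -0.76 (adjusted p = 0.054). Ramp3, which escorts calcitonin-type receptors to the surface, was at 4.65, 4.48, 4.95 and 4.43 in Cre- and at 7.56, 7.99, 7.81 and 7.65 in Cre+ kidneys (3.13, SE 0.13, adjusted p = 8.7e-11). Sort1, a sorting receptor that binds neurotrophin precursors, rose by 0.79 (SE 0.15), and its second entry on the array was at 0.16.

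Genes better known from neurons, and a mixed group of enzymes, rose as well. Among 34 axon guidance and neuronal adhesion genes 6 rose and 1 fell, with a median of 0.08. Besides Reln, the risers included the semaphorin Sema6a (1.54, SE 0.11), the adhesion molecule Nrcam (0.95, SE 0.18) and the netrin Ntn4 (0.55, SE 0.12). The member that fell was Ntn1 (-0.45, adjusted p = 0.040), which lost its call without Cre- replicate 1 or 3 or Cre+ replicate 2, 3 or 4 at 4 months or Cre- replicate 2 at 7 months. Diras2, a small GTPase of the Ras family, was at 3.69, 4.30, 4.64 and 4.21 in Cre- and at 9.64, 9.63, 10 and 10 in Cre+ kidneys (5.61, SE 0.22). Moxd1, a relative of copper-dependent monooxygenases, was at 3.23, 3.72, 4.10 and 3.20 against 9.17, 9.13, 9.37 and 9.34 (5.69, SE 0.21). Snap91, a clathrin assembly protein of synapses, rose by 3.17 (SE 0.16), and Bex1, a small adaptor protein of neurons, by 2.42 (SE 0.27). Ndc1, a membrane protein that anchors nuclear pores, was at 7.27, 7.11, 7.16 and 7.33 in Cre- and 10.48, 10.53, 10.42 and 10.68 in Cre+ kidneys (3.31, SE 0.10, adjusted p = 4.7e-13). Nr4a1, an orphan nuclear receptor and immediate early gene, rose by 3.64 (SE 0.17).

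Enzymes among the largest rises included Eno3, the muscle form of enolase (2.43, SE 0.14), Zdhhc2, a palmitoyltransferase (2.22, SE 0.24), Aoc1, a diamine oxidase (2.11, SE 0.20), and Tnni3k, a kinase known from heart muscle (2.84, SE 0.20). The sorting nexin Snx31 was at 7.29, 5.54, 7.49 and 6.05 in Cre- and at 9.13, 9.20, 9.18 and 9.41 in Cre+ kidneys (2.64, SE 0.34, adjusted p = 0.00012). Its 2 higher Cre- values were those of the arrays with high Y-linked values. Cfap52, a protein of cilia, rose by 2.16 (SE 0.15), and Arsj, of the arylsulfatase family, by 2.04 (SE 0.12) in the entry used and by 0.23 in its other entry on the array.

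**Figure D2:**
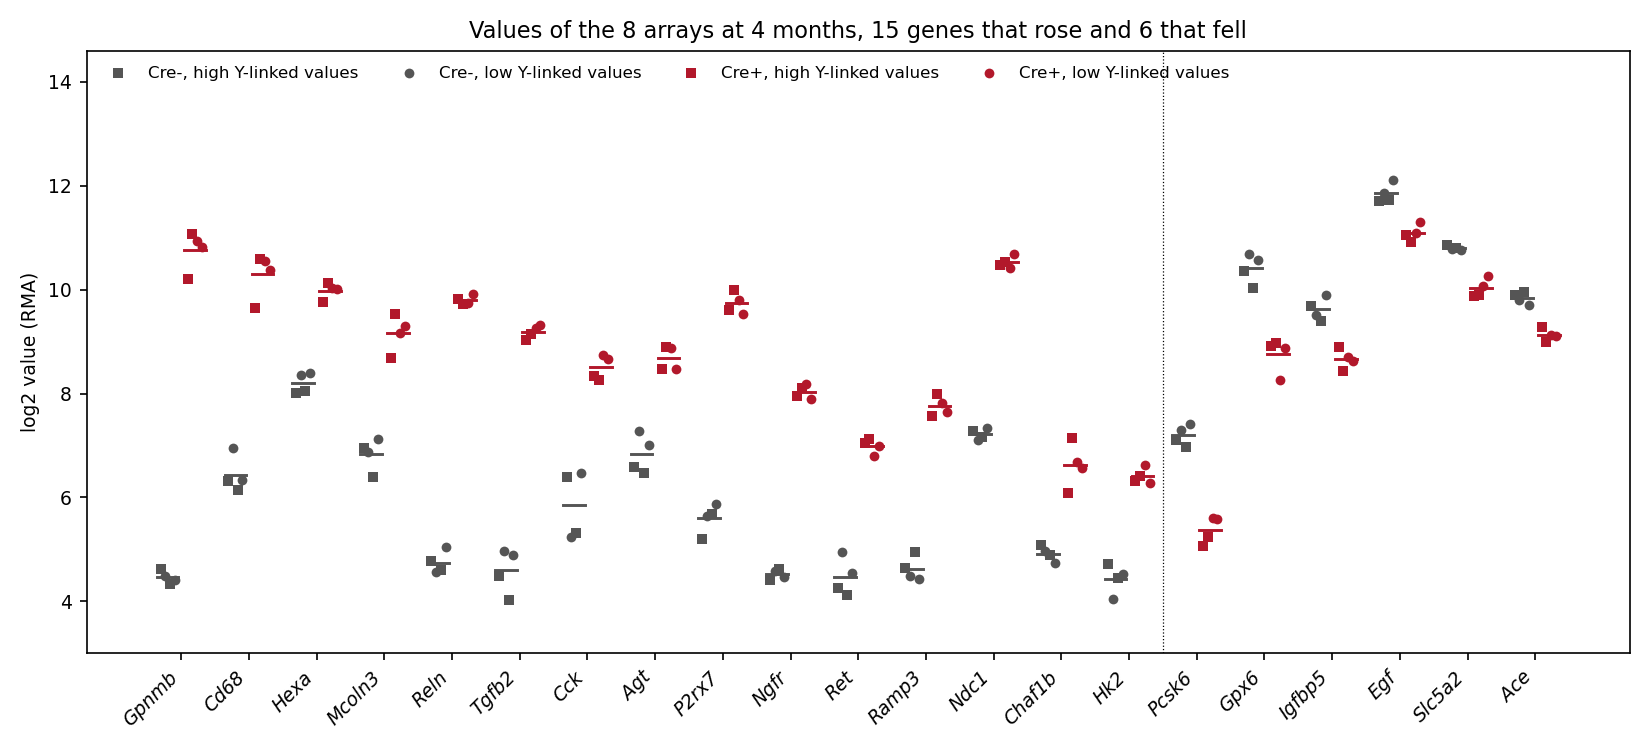
Log2 values of 15 genes that rose and, right of the dotted line, 6 that fell, in the 4 Cre- (grey) and 4 Cre+ (red) kidneys at 4 months. Each point is 1 mouse, squares are arrays of high and circles of low Y-linked values, and the bar is the mean; for Gpnmb the Cre- values end at 4.63 and the Cre+ values begin at 10.21.

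Beyond those genes, the rises in lysosomal genes were smaller, and they included genes that sense nutrients at the lysosomal surface. Of 35 measured lysosomal hydrolases 9 rose and 0 fell, with a median of 0.05, where that of all genes was 0.05. The number that rose was 6 to 9 with each 4-month array left out. The risers included, besides Hexa, the cathepsins Ctsl (0.96, SE 0.12), Ctsk (0.88, SE 0.15) and Ctsd (0.59, SE 0.10), the galactosidase Gla (0.75, SE 0.12) and Psap, which yields activators of sphingolipid breakdown (0.52, SE 0.10). Of 26 lysosomal membrane proteins 6 rose and 0 fell, with a median of 0.22, and 5 to 7 rose with each 4-month array left out. The risers included Gpnmb, described above (6.3), the tetraspanin Cd63 (0.47, SE 0.09) and the calcium channel Mcoln1 (0.61, SE 0.12). Of 16 genes of folliculin, the Rag GTPases and Ragulator 5 rose and 0 fell, with a median of 0.19. Rragd, a Rag GTPase, was at 8.04, 8.25, 8.18 and 8.50 in Cre- and at 9.31, 9.53, 9.31 and 9.61 in Cre+ kidneys (1.20, SE 0.11, adjusted p = 5e-06). Rragc rose by 0.59 (SE 0.11), Flcn, folliculin itself, by 0.48 (SE 0.09), and its partner Fnip2 by 0.53 (SE 0.09). Of 21 subunits of the proton pump V-ATPase 2 rose and 0 fell, with a median of 0.07. Atp6v0a1 was one (0.75, SE 0.10), and 1 rose without Cre- replicate 1 or 3 or Cre+ replicate 3 or 4. Of 24 autophagy genes 1 rose, the receptor Sqstm1 (0.44, adjusted p = 0.031), and 1 fell, Wipi1 (-0.41, adjusted p = 0.033). Neither held throughout the leave-outs: 0 rose without any 1 Cre- replicate of 1, 2 and 4 or any 1 Cre+ replicate of 2, 3 and 4 (2 rose without Cre+ replicate 1), and 0 fell without any 1 Cre- replicate or without Cre+ replicate 1 or 2.

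Markers of macrophages were higher in the same arrays, which bears on Cd68, Gpnmb, Lyz2 and the cathepsins, since macrophages also make them. Of 25 measured macrophage and monocyte markers 7 rose and 0 fell, with a median of 0.56. The mean of the list ran from 5.30 to 5.86 in Cre- and from 5.89 to 6.36 in Cre+ kidneys, and Cre- replicate 2 and Cre+ replicate 1 were the closest pair. Cd68 is itself a member and had the largest change of the list (3.86), so the list is not separate from that gene. The mean without Cd68 was not taken, and whether the groups stay apart without it was not tested. Mrc1, a mannose receptor of tissue macrophages, was at 5.67, 6.05, 5.55 and 5.74 in Cre- and at 6.68, 7.02, 7.19 and 7.25 in Cre+ kidneys (1.28, SE 0.15, adjusted p = 4.9e-05). Lyz2, a lysozyme, rose by 1.19 (SE 0.22), the defining marker Adgre1 (F4/80) by 0.95 (SE 0.23, adjusted p = 0.031) and Cd163, a haemoglobin receptor, by 0.68 (SE 0.14). Adgre1 lost its call without Cre- replicate 1, 3 or 4 or Cre+ replicate 2, 3 or 4, where its adjusted p was 0.0605 to 0.11. The part of macrophages in the rise of lysosomal genes was not tested. The count of macrophage markers that rose was 15 without Cre- replicate 2, 11 without Cre+ replicate 1, and 4 without Cre+ replicate 2 or 4.

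Other genes of immune cells moved with them. Of 9 MHC class II genes, which present antigen, 5 rose and 0 fell, with a median of 0.51. H2-Ab1 was at 9.47, 9.71, 9.36 and 9.46 in Cre- and at 10.15, 10.95, 10.79 and 10.67 in Cre+ kidneys (1.14, SE 0.15, adjusted p = 0.00013), and H2-Aa rose by 0.93 (SE 0.15). The count of the 9 was 3 without Cre- replicate 1 or 4 or Cre+ replicate 3 or 4. Of 30 chemokines and their receptors 6 rose and 0 fell, with a median of 0.34, and Cxcl16, a membrane-bound chemokine, was the one whose call held in every leave-out (0.53, SE 0.10). The count fell to 3 without Cre- replicate 1, 2 or 3 or Cre+ replicate 3, to 2 without Cre- replicate 4 or Cre+ replicate 4, and to 1 without Cre+ replicate 2. Of 15 endothelial markers 0 rose and 0 fell by limma and 0 had an unadjusted p under 0.05, with a median of 0.07, Pecam1 at 0.22 (adjusted p = 0.36) and Cdh5 at 0.21 (adjusted p = 0.53). The plain linear model called 0 of them too. Of 12 pericyte, mesangial and juxtaglomerular markers 0 rose and 0 fell by limma, 0 had an unadjusted p under 0.05 and the plain linear model called 0, with a median of -0.01 and Myh11 at -0.30 (adjusted p = 0.40).

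Cell division genes rose together. Of 25 measured mitosis genes 13 rose and 0 fell, with a median of 0.69, and all 25 changes were above 0. The mean of the list ran from 4.27 to 4.53 in Cre- and from 4.82 to 5.17 in Cre+ kidneys, without overlap. Mki67, which marks cycling cells, was at 4.72, 5.56, 4.80 and 4.90 in Cre- and at 6.06, 6.24, 6.41 and 6.34 in Cre+ kidneys (1.27, SE 0.17, adjusted p = 0.00029). Top2a, which untangles chromosomes, rose by 1.22 (SE 0.20), and Prc1, which bundles the microtubules of the central spindle, by 1.15 (SE 0.16). Tpx2, a spindle assembly factor, rose by 1.0 (SE 0.13), the kinetochore motor Cenpe by 0.98 (SE 0.14), the kinetochore protein Nuf2 by 0.94 (SE 0.15) and Anln, a protein of the cleavage furrow, by 0.91 (SE 0.16). The count stayed between 12 and 15 with each 4-month array left out.

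A few DNA replication genes rose too. Of 24 measured members 2 rose and 0 fell, with a median of 0.25, and 4 rose without Cre+ replicate 1. Chaf1b, a subunit of the chromatin assembly factor that follows the replication fork, was at 5.08, 4.96, 4.89 and 4.74 in Cre- and at 6.09, 7.15, 6.69 and 6.56 in Cre+ kidneys (1.70, SE 0.18, adjusted p = 1.6e-05). The other riser was Rrm2, a subunit of ribonucleotide reductase (0.78, SE 0.12), whose second entry on the array was at 0.04. Among 19 p53 targets and inhibitors of cyclin-dependent kinases 3 rose and 0 fell, with a median of 0.10, and 2 rose without Cre+ replicate 3 or 4. They were Cdkn1a (p21), an inhibitor of cyclin-dependent kinases (0.88, SE 0.17), Eda2r, a receptor that p53 induces (0.84, SE 0.15), and the kinase Plk2 (0.67, SE 0.15), the one lost in those leave-outs. Cdkn3, a phosphatase of cyclin-dependent kinases and no member of that list, rose by 2.10 (SE 0.20).

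Genes of tubule injury rose in part. Of 26 measured members 9 rose and 0 fell, with a median of 0.38, and the mean of the list ran from 5.60 to 5.87 in Cre- and from 5.99 to 6.46 in Cre+ kidneys. Lcn2, a secreted iron-binding protein of stressed tubules, was at 5.58, 6.65, 5.22 and 6.07 in Cre- and at 7.10, 7.58, 8.70 and 7.62 in Cre+ kidneys (1.87, SE 0.33, adjusted p = 0.0028). The spread within each group was more than 1 unit, and the groups did not overlap. Lgals3, a galactose-binding lectin, rose by 1.17 (SE 0.17), Tnfrsf12a, the receptor of the cytokine TWEAK, by 0.99 (SE 0.15), Anxa3 by 0.92 (SE 0.17), Cd44, a receptor of hyaluronan, by 0.89 (SE 0.16), and Anxa1 by 0.81 (SE 0.15). Fgg, the fibrinogen gamma chain, was at 5.43, 5.91, 5.51 and 5.70 in Cre- and at 6.63, 7.25, 7.55 and 7.18 in Cre+ kidneys (1.52, SE 0.22, adjusted p = 0.00048). Matrix genes included Tnc, tenascin C (1.75, SE 0.24), Col1a1, a chain of type I collagen (1.32, SE 0.20), Timp2, an inhibitor of matrix proteases (1.26, SE 0.13), and Mmp7, a protease that injured tubules make (1.62, SE 0.28), whose second entry on the array was at -0.04. Of 22 collagens 4 rose and 0 fell, with a median of 0.21, and 2 rose without Cre- replicate 1 or 4 and 1 without Cre- replicate 3 or Cre+ replicate 3 or 4.

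**Figure D3:**
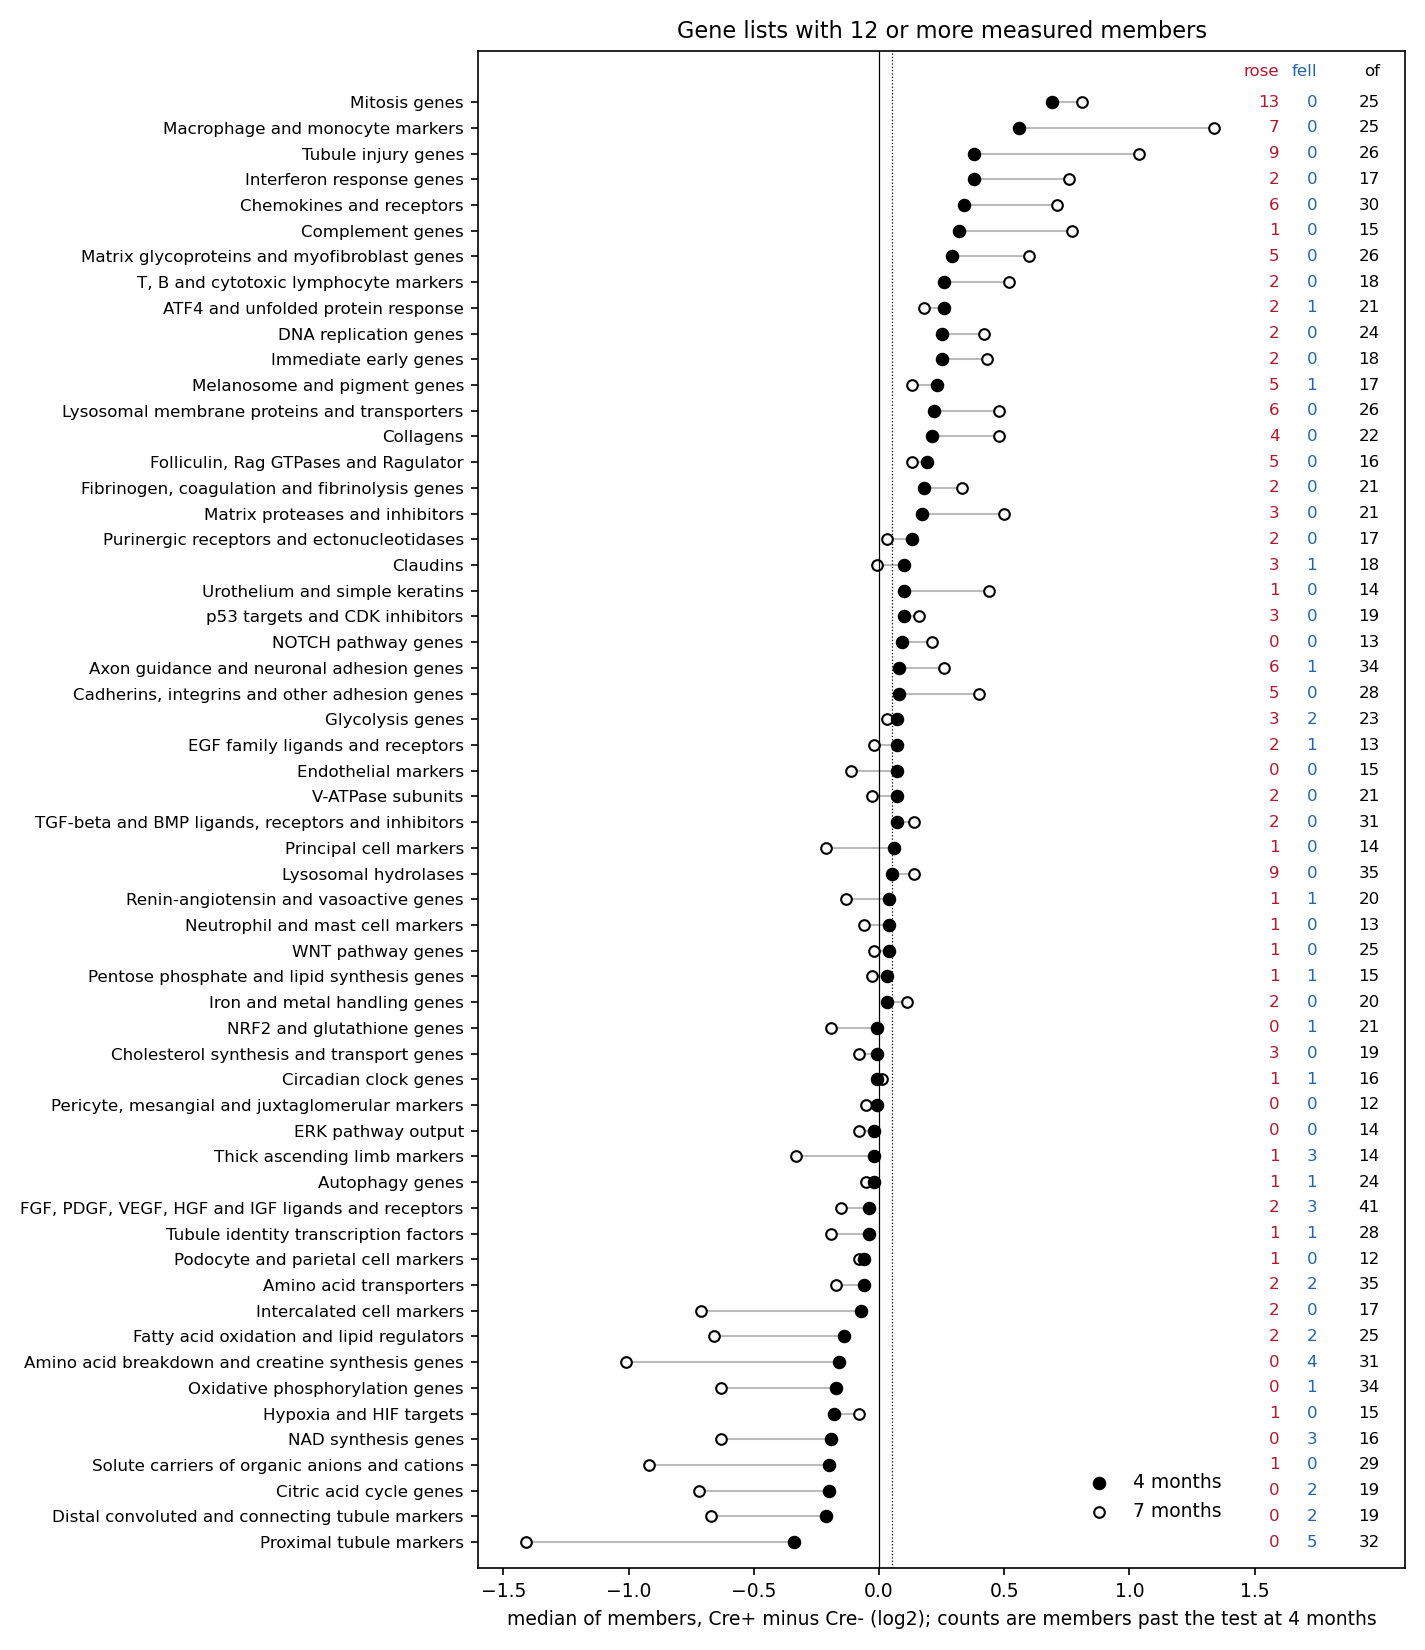
Median log2 difference between Cre+ and Cre- kidneys of the members of gene lists with 12 or more measured members. Filled points are 4 months and open points 7 months, with the number of members that rose and fell at 4 months. The lists of sex-biased kidney genes and of adipocyte, adrenal and other neighbouring tissue markers are not drawn. The dotted line is the median of all genes at 4 months, 0.05; mitosis genes had the highest median, 0.69, and proximal tubule markers the lowest, -0.34.

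The falls were smaller than the rises. Pcsk6, a protease that activates secreted precursors, was at 7.10, 7.30, 6.97 and 7.42 in Cre- and at 5.06, 5.23, 5.61 and 5.58 in Cre+ kidneys (-1.83, SE 0.17, adjusted p = 2.3e-06). Gpx6, a glutathione peroxidase, was at 10.35, 10.69, 10.03 and 10.58 against 8.92, 8.97, 8.26 and 8.88 (-1.66, SE 0.19, adjusted p = 3.3e-05). The groups did not overlap for either gene, and for Gpx6 Cre+ replicate 3 lay below the other Cre+ arrays. Gpx6 was the only one of 21 genes in the NRF2 and glutathione list to pass the test, and the median of that list was -0.01. Outside it, the glutathione transferase Gstk1 (-0.45) and Chac2, an enzyme of glutathione breakdown (-0.63), were also lower. Both were picked because they were called lower. Glutathione genes outside the list that rose are not given here, so a wider fall is not shown. Nccrp1 was at 6.32, 6.55, 5.57 and 6.63 in Cre- and at 5.25, 4.05, 3.98 and 4.14 in Cre+ kidneys (-1.92, SE 0.34), with Cre+ replicate 1 above the other Cre+ arrays. Wfdc15b, of the whey acidic protein family, fell by 1.61 (SE 0.21), Lrrc66 by 1.31 (SE 0.20), Abca4, a transporter of retinoids, by 1.17 (SE 0.17), Kcnt1, a potassium channel, by 1.11 (SE 0.18), and Dusp15, a protein phosphatase, by 1.06 (SE 0.15).

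Growth factors and their binding proteins went both ways. Of 41 ligands, receptors and binding proteins of the FGF, PDGF, VEGF, HGF and IGF families 2 rose and 3 fell, with a median of -0.04. The number that rose was 1 without Cre- replicate 2 or 4 or Cre+ replicate 2 or 3 and 0 without Cre- replicate 1 or 3 or Cre+ replicate 4, and 2 fell without Cre- replicate 1, 2 or 3 or Cre+ replicate 2 or 3. Igfbp5, which binds insulin-like growth factors, was at 9.68, 9.51, 9.40 and 9.89 in Cre- and at 8.89, 8.44, 8.71 and 8.63 in Cre+ kidneys (-0.95, SE 0.14, adjusted p = 0.00068). Egf, made by the thick ascending limb and distal convoluted tubule, was at 11.71, 11.87, 11.73 and 12.12 against 11.06, 10.91, 11.10 and 11.31 (-0.77, SE 0.16, adjusted p = 0.010). Hbegf, another ligand of the EGF receptor, went the other way (0.71, SE 0.14). Of the 13 measured EGF family ligands and receptors 2 rose and 1 fell, with a median of 0.07, 1 rose without Cre+ replicate 4, and 3 fell with arrays centred on their medians. Pdgfc, a ligand of PDGF receptors, fell by 0.56 (SE 0.11), while Igfbp1, another binding protein of insulin-like growth factors, rose by 1.43 (SE 0.32) and Pdgfa, another PDGF ligand, by 0.37 (SE 0.09). Igfbp1 lost its call without Cre- replicate 1 or 3 or Cre+ replicate 3 or 4. Pdgfa lost it without any 1 Cre- replicate or without Cre+ replicate 2 or 4, after quantile normalization and with arrays centred on their medians.

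Angiotensin genes moved in opposite directions. Ace, which makes angiotensin II, was at 9.90, 9.81, 9.95 and 9.71 in Cre- and at 9.28, 9.0, 9.12 and 9.10 in Cre+ kidneys (-0.72, SE 0.14, adjusted p = 0.0052), while Agt, its substrate's precursor, rose as described. Of the 20 renin-angiotensin and vasoactive genes these were the 2 that passed the test, and the median was 0.04. Of 28 measured transcription factors of tubule identity 1 rose and 1 fell, with a median of -0.04, 2 fell without Cre+ replicate 1, and 4 fell with arrays centred on their medians: Esrrb, an orphan nuclear receptor, fell by 0.89 (SE 0.17) and Sim2, a factor of the basic helix-loop-helix and PAS type, rose by 1.08 (SE 0.19).

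Markers of nephron segments had not fallen far at 4 months. Of 32 measured proximal tubule markers 0 rose and 5 fell, with a median of -0.34, and 30 of the 32 changes were below 0. Slc5a2, the glucose transporter SGLT2 of the early proximal tubule, was at 10.86, 10.78, 10.80 and 10.76 in Cre- and at 9.87, 9.89, 10.07 and 10.27 in Cre+ kidneys (-0.78, SE 0.14, adjusted p = 0.0036). The other 4 falls were those of Slc34a1 (-0.38), Slc34a3 (-0.87), Gatm (-0.81) and Dpep1 (-0.55), and none of them held with every array left out. The count was 2 without Cre- replicate 1 or Cre+ replicate 4, and 1 without Cre- replicate 2, 3 or 4 or Cre+ replicate 2 or 3, while it was 3 after quantile normalization and 8 with each array centred on its median. The mean of the list was 10.54 and 10.59 in the Cre- arrays of high Y-linked values and 10.13 and 10 in the Cre+ arrays of that kind. In the arrays of low Y-linked values it was 9.94 and 9.96 in Cre- and 9.65 and 9.78 in Cre+ kidneys. Over all 8 arrays the groups therefore overlapped, and within each kind they did not.

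Markers of later segments were mixed. Of 14 thick ascending limb markers 1 rose and 3 fell, with a median of -0.02, and 1 fell without Cre- replicate 2. Of 19 markers of the distal convoluted and connecting tubule 0 rose and 2 fell, with a median of -0.21. Wnk4, a kinase that sets salt transport there, was at 7.69, 8.14, 7.89 and 7.89 in Cre- and at 7.08, 6.62, 7.26 and 7.28 in Cre+ kidneys (-0.84, SE 0.14, adjusted p = 0.0017), and 1 of the 2 fell without Cre- replicate 2 or 3 or Cre+ replicate 2 or 3, and 4 fell with arrays centred on their medians. Of 14 principal cell markers 1 rose and 0 fell, with a median of 0.06. This was Aqp3, a water channel, at 8.72, 8.41, 8.48 and 8.78 against 9.43, 9.53, 9.71 and 9.76 (1.01, SE 0.11, adjusted p = 1.6e-05), and 2 rose without Cre- replicate 2 or Cre+ replicate 1. Cldn4, a claudin of the collecting duct and thin limb, rose by 1.06 (SE 0.19) and Upk1a, a uroplakin of the urothelium, by 1.10 (SE 0.17).

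Few genes of energy metabolism passed the test. All 34 changes of the measured oxidative phosphorylation genes were below 0, the median was -0.17 and 1 fell, Ndufb3 (-0.51, adjusted p = 0.021). The count was 0 without Cre- replicate 1 or 2 or Cre+ replicate 2 or 3, and 2 without Cre+ replicate 1. The changes of all 19 citric acid cycle genes were below 0 as well, with a median of -0.20, and 2 fell. Idh2, the mitochondrial isocitrate dehydrogenase, was at 10.27, 10.36, 10.42 and 10.19 in Cre- and at 9.89, 9.49, 9.71 and 9.61 in Cre+ kidneys (-0.63, SE 0.11, adjusted p = 0.0021). Sucla2, a subunit of succinyl-CoA ligase, was the other (-0.39, adjusted p = 0.045), and 1 of the 2 fell with any 4-month array left out but Cre- replicate 2. With each array centred on its median, 5 oxidative phosphorylation and 4 citric acid cycle genes fell. Of 25 genes of fatty acid oxidation and lipid regulation 2 rose and 2 fell, with a median of -0.14, and 8 changes were above 0. There 1 rose without Cre- replicate 1, 3 or 4 or Cre+ replicate 2, 3 or 4, and 1 fell without Cre- replicate 2 or 3 or Cre+ replicate 2 or 4.

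Among single enzymes the changes were larger. Hk2, a hexokinase that healthy tubules make little of, was at 4.72, 4.05, 4.45 and 4.52 in Cre- and at 6.31, 6.42, 6.63 and 6.27 in Cre+ kidneys (1.97, SE 0.25, adjusted p = 0.00012). Pfkp, a phosphofructokinase, rose by 1.13 (SE 0.17), and Pdk4, which restrains the entry of pyruvate into the citric acid cycle, by 1.48 (SE 0.26). Aldoc, an aldolase, fell by 0.59 (SE 0.13), and of 23 genes in the glycolysis list 3 rose and 2 fell, with a median of 0.07. The number that fell was 1 without any 1 Cre- replicate or without Cre+ replicate 2 or 3. Eno3, the enolase described above (2.43), was not in that list. Aldh4a1, which completes the breakdown of proline, was at 8.63, 8.50, 8.73 and 8.35 in Cre- and at 8.03, 7.42, 7.76 and 7.71 in Cre+ kidneys (-0.83, SE 0.13, adjusted p = 0.00098). Echs1, of fatty acid oxidation, fell by 0.44 (SE 0.09), and Nmrk1, a kinase of NAD synthesis, by 0.56 (SE 0.11). Slc16a10, a carrier of aromatic amino acids, fell by 0.55 (SE 0.09) and Slc38a1, a glutamine carrier, rose by 1.13 (SE 0.20).

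**Figure D4:**
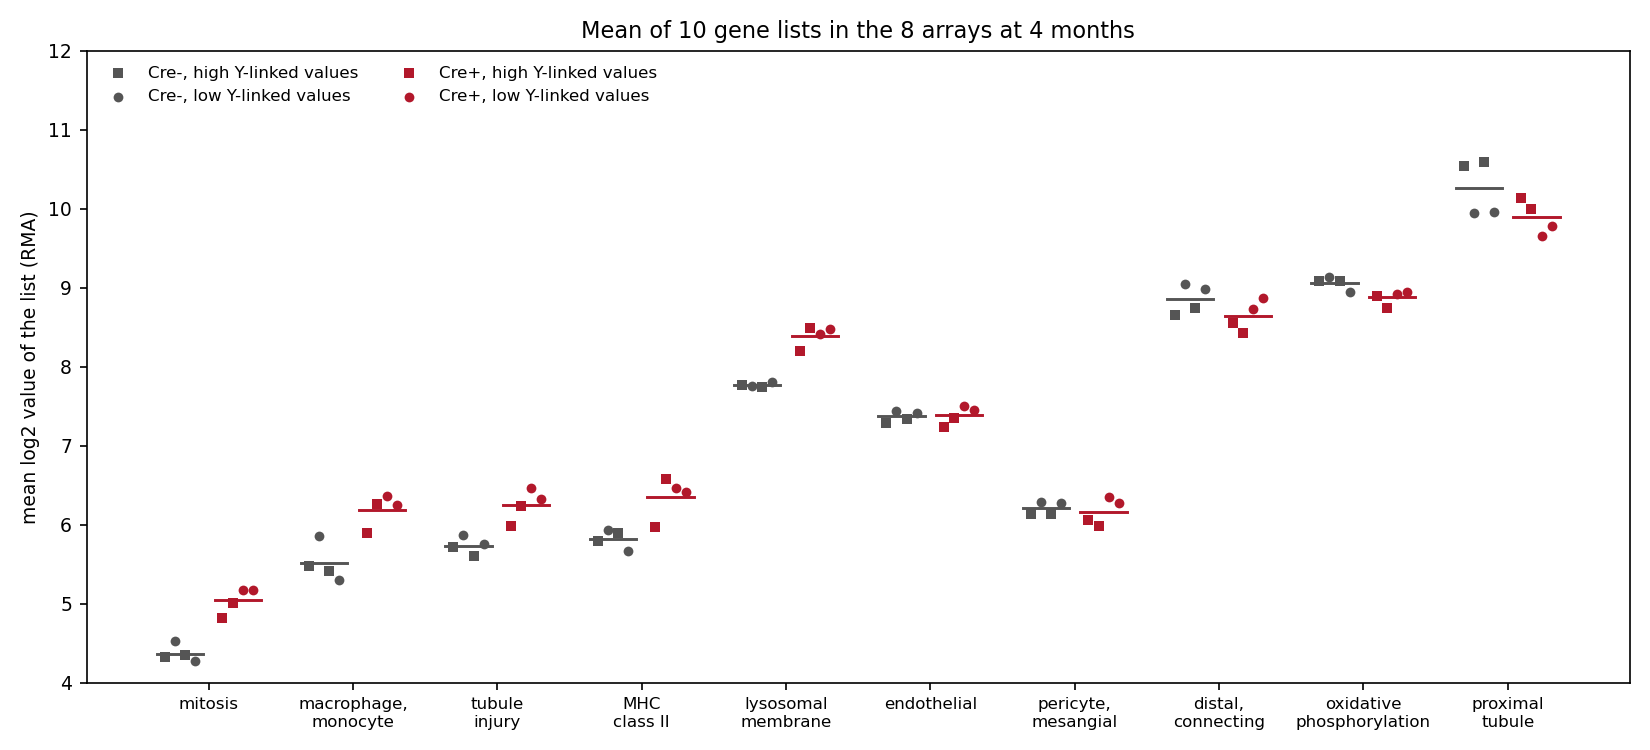
Mean log2 value of the measured members of 10 gene lists in each of the 4 Cre- (grey) and 4 Cre+ (red) kidneys at 4 months, with squares for arrays of high and circles for arrays of low Y-linked values and a bar at the mean. The mitosis list had no overlap (4.27 to 4.53 against 4.82 to 5.17), while in the proximal tubule list the Cre- arrays ran from 9.94 to 10.59 and the Cre+ arrays from 9.65 to 10.13.

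The kidneys at 7 months, from 3 Cre- and 4 Cre+ other mice of the same genotypes, showed most of the 4-month changes again. The kinds of array were not balanced at that age: 2 Cre- arrays had high and 1 had low Y-linked values, against 2 and 2 of Cre+. The mean of the proximal tubule list was 9.93 in that 1 Cre- array and 10.53 and 10.52 in the other Cre- arrays. Of the 606 higher genes 547 (90.3%) were higher at 7 months and of the 178 lower genes 168 (94.4%) were lower, where 11.7% and 10.8% of all genes were called. Seen from 7 months, these were 21.1% of the 2597 higher and 7.02% of the 2394 lower genes. The median change of the higher genes went from 0.73 to 1.07 and that of the lower genes from -0.56 to -1.03. No gene was called at both ages in opposite directions. By the interaction, which tests the difference between the effects at the 2 ages and called 2.14% of all genes, 106 of the 784 genes had a larger effect at 7 months and 5 a smaller one. The counts seen again moved with single 4-month arrays: 340 to 359 higher genes without Cre- replicate 1 or 3 or Cre+ replicate 3 or 4, and 70 to 91 lower genes without Cre- replicate 1 or 3 or Cre+ replicate 2 or 3. The 106 were 57 to 68 without any 1 Cre- replicate at 4 months, without Cre+ replicate 2, 3 or 4 at 4 months, or without Cre- replicate 2 or Cre+ replicate 3 at 7 months. The 5 were 2 or 3 without Cre- replicate 1 or 4 or Cre+ replicate 4 at 4 months, without any 1 Cre- replicate at 7 months, or without Cre+ replicate 2 or 3 at 7 months.

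Most of the largest rises did not pass that test. The difference between the ages was 0.17 (SE 0.17) for Reln, 0.01 (SE 0.32) for Tgfb2, 0.09 (SE 0.17) for Ngfr, 0.05 (SE 0.25) for Ret, 0.02 (SE 0.20) for Eno3, 0.02 (SE 0.46) for Cck and -0.19 (SE 0.15) for Ndc1. Other uncalled rises differed more: Diras2 went from 5.61 to 6.67, Bex1 from 2.42 to 3.33, Mreg from 2.70 to 3.52 and Tyrp1 from 4.05 to 4.76. Moxd1 went the other way, from 5.69 to 5.44, as did Ramp3, from 3.13 to 2.9. A rise that was not called is not shown to be equal at the ages. Gpnmb went from 6.30 at 4 months to 7.74 at 7 months (difference 1.45, adjusted p = 0.0069). Genes of injury, matrix and immunity also grew: Mmp7 by 2.38, Fgg by 2.05, Cd44 by 2.00, Anxa3 by 1.75, Hpgds, a prostaglandin synthase, by 1.78, and Timp2 by 1.08. Chaf1b grew by 1.39 (adjusted p = 0.012) and Cldn4 by 1.57 (adjusted p = 0.0079).

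Falls also deepened. Dnase1, a secreted nuclease, went from -1.04 to -2.89 (difference -1.85, adjusted p = 0.0049), Egf from -0.77 to -2.21 (-1.45, adjusted p = 0.0049), Slc5a2 from -0.78 to -2.12 (-1.34, adjusted p = 0.0042), Nmrk1 from -0.56 to -1.86 (-1.30, adjusted p = 0.0013) and Fut9, a fucosyltransferase, from -0.78 to -2.03 (-1.25, adjusted p = 0.0038). Several lists gained calls at 7 months. Of the 32 proximal tubule markers 5 fell at 4 months and 26 at 7 months, 14 of them with a larger effect by the interaction, and the median went from -0.34 to -1.41. Oxidative phosphorylation genes went from 1 to 30 of 34 falling, with 2 called by the interaction. Macrophage markers went from 7 to 23 of 25 rising, with 8 called by the interaction. Mitosis genes went from 13 to 20 of 25 rising, with 1 called, and lysosomal hydrolases from 9 rising and 0 falling to 12 rising and 6 falling of 35, with 3 called. A list that gained calls between ages without the interaction is not shown to differ between them.

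The 5 genes with a smaller or opposite effect at 7 months were Cyp4f39, Penk, Ppef2 and the predicted genes Gm15498 and Gm6929. Cyp4f39, a cytochrome P450, was at 4.69, 4.40, 3.77 and 4.30 in Cre- and at 6.14, 6.32, 6.35 and 6.79 in Cre+ kidneys at 4 months (2.11, SE 0.19), against 1.01 at 7 months (difference -1.10, adjusted p = 0.046). That difference held without Cre- replicate 1 at 4 months or Cre+ replicate 4 at 7 months, and its adjusted p was 0.0508 to 0.106 without any other array. Penk, which encodes the precursor of enkephalin peptides, was at 5.06, 4.92, 5.23 and 4.93 against 6.28, 6.16, 6.44 and 6.16 at 4 months (1.23, SE 0.13, adjusted p = 1.1e-05). At 7 months its change was 0.26 (adjusted p = 0.19), and the difference between the ages was -0.96 (adjusted p = 0.012). Ppef2, a protein phosphatase of photoreceptors, went from 0.54 to -0.22 (difference -0.76, adjusted p = 0.017). Gm15498 and Gm6929, with Cre- means under 4 at 4 months, had differences of -0.62 and -0.68 (adjusted p = 0.048 and 0.043). Those held without Cre- replicate 3 or Cre+ replicate 1 at 4 months or Cre+ replicate 1 at 7 months for Gm15498, and without Cre- replicate 2 at 4 months for Gm6929, and the adjusted p was 0.0516 to 0.0992 without any other array.

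**Figure D5:**
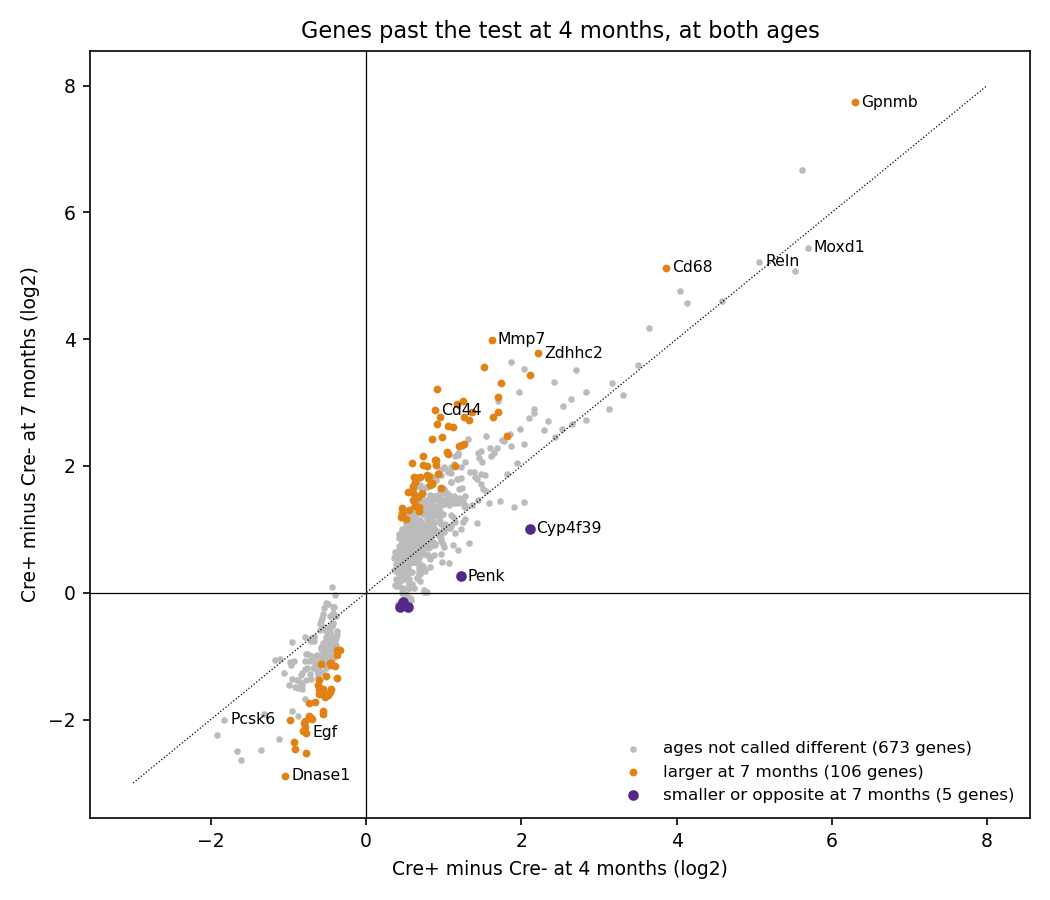
Log2 difference between Cre+ and Cre- kidneys at 4 months (x axis) and 7 months (y axis) for the 784 genes past the test at 4 months, each a point; the dotted line marks equal effects. The 106 genes with a larger effect at 7 months by the interaction are orange and the 5 with a smaller one purple, and the rest are grey.

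The balance of arrays with high and low Y-linked values allowed the 4-month comparison to be repeated within each kind, with 2 arrays a group. Within the arrays of high values 372 genes were higher and 366 lower, and within those of low values 427 were higher and 51 lower. The fits within a kind rest on fewer arrays. A test of the difference between the kinds called 13 genes, 11 of them more negative in the arrays of high values. Snx31 was the only 1 of the 784 among them: the change was 1.78 within the arrays of high and 3.50 within those of low values (difference -1.72, adjusted p = 0.032). Its Cre+ values lay between 9.13 and 9.41 in both kinds, and its Cre- values were the ones that differed.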

How the data were processed

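RNA of whole kidney was hybridised to 1 array a mouse, 15 arrays in all, and the deposited series table holds log2 values that the authors made with RMA in Partek 6.6, per the submitters' processing notes. A genome build for the array's probes was not given in the sources used here. The table has 41345 rows. Those with 1 gene symbol (23521) were used, 23328 of them renamed through the Entrez identifier from RefSeq (GRCm38.p6) and 193 under the platform's symbol, and 1814 rows with several and 16010 with no symbol were set aside. For the 1082 genes with several rows the row of highest mean over the 15 arrays was kept, with no filter, which left 22180 genes.

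Groups came from the titles. limma 3.58.1 in R 4.3.3 fitted 4 group means to all 15 arrays, with eBayes moderation and 3 contrasts (each age, and the difference between ages, called the interaction). P-values are two-sided and adjusted by Benjamini-Hochberg over all 22180 genes, with a threshold of 0.05; adjusted p-values in the text are from this fit. Each array is 1 mouse, and precision is limited by how many arrays there are. The two-sided exact permutation test of 4 against 4 arrays has 70 regroupings and cannot go below 0.0286, a value that any gene without overlap reaches. The replicate numbers of the titles did not pair the arrays: deviations from group means of same-numbered arrays correlated between -0.28 and 0.22.

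The genes described are Tfe3, Prcc and Cdh16, genes from the 30 largest rises and 30 largest falls without overlap, up to 8 rising and 8 falling members of each of 68 gene lists (up to 3 where none passed), and 10 genes each with the largest growth or shrinkage by the interaction. The choice of largest rises and falls left out predicted genes, clone names such as those ending in Rik, olfactory and vomeronasal receptors and small RNAs. Called genes with such names included 2010320O07Rik (5.53), 1700019D03Rik (2.54) and Gm906 (-1.35) at 4 months. Slc7a12 was chosen after its values were seen. So were the genes given as lying outside a list: Inhbe, Bmp3, Bmp15, Twsg1, Nbl1, Gstk1, Chac2, Fzd6 and Fzd8. Of 1343 distinct list genes 1232 were measured. A list does not hold every gene of its pathway or family. The gene lists and the comparison were chosen with earlier results of these data known. Alternatives were a filter on low values, quantile normalization, median centring, other variance models, each age alone, array weights, a block for the replicate number, a covariate of Y-linked genes, other choices of row, a test against a 1.5-fold change and leaving out each array. The fit within each kind of Y-linked values was added after seeing the data. The scripts (Python 3.11.15, pandas 2.3.3, numpy 2.4.6, matplotlib 3.10.9) were tested on simulated data.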

Additional observations from a re-analysis of the deposited data

Results flagged for a closer look

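In 5 of 298 groups of 4 arrays examined, 1 array stood apart from the other 3, where chance alone marks about 1 group in 20. In the Cre+ kidneys at 4 months these were replicate 2 for Lyz2, lowest at 8.04, replicate 1 for H2-Aa, lowest at 8.52, replicate 1 for Cd44, lowest at 4.59, replicate 3 for Gpx6, lowest at 8.26, and replicate 1 for Nccrp1, highest at 5.25.

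The change in Cre+ kidneys differed between 7 and 4 months by the interaction for 29 of the genes described. The difference (7 minus 4 months, log2) was positive for Mmp7 (2.38), Fgg (2.05), Cd44 (2.00), Hpgds (1.78), Anxa3 (1.75), Cldn4 (1.57), Zdhhc2 (1.56), Gpnmb (1.45), Chaf1b (1.39), Aoc1 (1.31), Cd68 (1.27), Timp2 (1.08), Anxa1 (1.03), H2-Aa (0.95), H2-Ab1 (0.85) and Ctsl (0.68). It was negative for Dnase1 (-1.85), Egf (-1.45), Dpep1 (-1.37), Gatm (-1.36), Slc5a2 (-1.34), Nmrk1 (-1.30), Fut9 (-1.25), Cyp4f39 (-1.10), Slc34a1 (-0.96), Penk (-0.96), Ppef2 (-0.76), Gm6929 (-0.68) and Gm15498 (-0.62). Several of these calls rested on single arrays. That of Aoc1 was lost without Cre+ replicate 1 at 4 months or replicate 2 of either group at 7 months (adjusted p = 0.0561 to 0.0796). That of Zdhhc2 was lost without Cre- replicate 1 or Cre+ replicate 1 or 4 at 4 months, or Cre- replicate 1 or Cre+ replicate 3 or 4 at 7 months (0.0511 to 0.0607). That of Anxa1 was lost without Cre- replicate 2 or 4 or Cre+ replicate 1 at 4 months, or Cre- replicate 1 or 2 or Cre+ replicate 3 at 7 months (0.0508 to 0.0769). Cd68 kept its call only without Cre- replicate 3 or Cre+ replicate 2 or 3 at 4 months or Cre+ replicate 2 at 7 months, and any other removal gave 0.0558 to 0.0937. H2-Aa kept it only without Cre- replicate 1 or Cre+ replicate 1, 2 or 4 at 4 months or Cre- replicate 3 at 7 months (0.0505 to 0.0908 otherwise), and H2-Ab1 only without Cre+ replicate 2 at 4 months (0.0512 to 0.11). Ctsl kept it only without Cre+ replicate 4 at 4 months or Cre+ replicate 1 at 7 months (0.053 to 0.114). Gatm kept it only without Cre- replicate 4 or Cre+ replicate 2 at 4 months, or Cre- replicate 2 or 3 or Cre+ replicate 1 or 4 at 7 months (0.0516 to 0.0642).

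Of the 17824 entries of the array with no gene symbol or several, which entered no comparison above, 96 had higher values at 4 months in the Cre+ group and 27 had lower ones.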

How the results depend on the processing

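Of the 784 genes called at 4 months, 335 kept their call under all alternatives but the fits within Y-linked kinds, the test against a 1.5-fold change and the test of every entry of the array. Here a gene that the filter on low values took out was counted as not keeping its call. Of the 132 called genes described, 118 to 132 kept it with 1 array left out, 99 and 95 within the arrays of high and low Y-linked values, 44 under the 1.5-fold test, all 125 still tested after the filter, and 118 to 132 under the other alternatives. None of the 132 reversed in any of these. Tfe3, not called, turned from 0.03 to -0.01 after quantile normalization, -0.06 with arrays centred, -0.02 to 0.10 with 1 array left out (below 0 without Cre- replicate 4 or Cre+ replicate 3 at 4 months) and -0.13 within the arrays of high Y-linked values. Slc7a12, not called over all 8 arrays (1.38), was at -0.20 within the arrays of low values. The higher genes (606) numbered 74 by the 1.5-fold test, 372 within the arrays of high values and 370 to 904 with 1 array left out. The lower genes (178) numbered 270 after the filter, 287 after quantile normalization, 511 centred, 324 with the Y-linked covariate, 109 over every entry, 3 by the 1.5-fold test, 366 and 51 within the arrays of high and low values, and 72 to 197 with 1 array left out. Genes higher again at 7 months (547) numbered 71 by the 1.5-fold test and 340 to 760 with 1 array left out. Genes lower again (168) numbered 254 filtered, 458 centred, 111 in the plain linear model, 309 with the covariate, 94 over every entry, 3 by the 1.5-fold test and 70 to 181 with 1 array left out. Genes with a larger effect at 7 months (106) numbered 178 filtered, 169 centred, 49 in the plain linear model, 160 with array weights, 201 with the covariate, 57 over every entry and 57 to 111 with 1 array left out. Genes with a smaller effect (5) numbered 2 filtered, 9 with array weights, 10 with the covariate and 2 to 7 with 1 array left out. With the replicate number as a block the counts were 614 higher and 181 lower at 4 months, and 104 larger and 3 smaller effects at 7 months. The causes of these differences were not tested. Values near background may understate folds, and the arrays give no detection calls.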

Other observations

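Single members moved in lists whose other members did not pass the test. Wnt5a, a WNT ligand, was at 5.07, 4.60, 4.8 and 4.85 in Cre- and at 5.54, 5.85, 5.95 and 5.98 in Cre+ kidneys at 4 months (log2 difference 1.0, SE 0.16, adjusted p = 0.0016). It was the only 1 of 25 measured genes in the WNT pathway list to pass the test, and their median was 0.04. Outside that list the WNT receptors Fzd6 (1.04) and Fzd8 (0.9) rose, and they were picked because they were called. Hif1a, the hypoxia-inducible factor subunit that oxygen destabilises, was at 7.99, 8.07, 7.81 and 8.37 in Cre- and at 8.61, 8.72, 8.58 and 8.63 in Cre+ kidneys (0.58, SE 0.12, adjusted p = 0.0083), and its other entry on the array was at 0.21. The other 14 of the 15 measured genes of its list did not pass, and 12 of the 15 changes were below 0, with a median of -0.18.

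Slc7a12, an amino acid transporter, differed between the Y-linked kinds. In the arrays of low Y-linked values it was at 11.74 and 11.76 in Cre- and at 11.54 and 11.56 in Cre+ kidneys, and in those of high values at 5.89 and 6.97 in Cre- and at 9.14 and 9.65 in Cre+ kidneys. The change was 2.96 within the arrays of high values and -0.20 within those of low values (difference 3.16, adjusted p = 0.021 by limma), with 2 arrays a group in each kind, and over all 8 arrays it was 1.38 (adjusted p = 0.62).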
